A study of Homo sapiens with 12 samples.

Results

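The genes described here encode the cytosolic factors that start and drive protein synthesis, with the genes that share their symbols. They are the genes whose symbols begin with EIF or EEF and that are counted on a protein-coding RefSeq transcript, without the eIF2 kinase genes (EIF2AK) and without EIF1AY. There were 63 such genes among 22257, and 62 of them held enough reads to be tested. EIF4E1B had a count of 0 in all 12 libraries and was not tested. By symbol they fell into EIF1, EIF5 and EIF6 (10 genes), EIF2 (10), EIF3 (14), EIF4 with the eIF4E-binding proteins (16), EEF1 (6), EEF2 with EEF2K and EEFSEC (3), and 4 Argonaute genes that carry the older symbols EIF2C1 to EIF2C4 and are not initiation factors.

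Translation starts when eIF2, loaded with GTP and initiator tRNA, joins the small ribosomal subunit together with eIF1, eIF1A, eIF3 and eIF5. The cap-binding complex eIF4F, made of eIF4E, eIF4G and eIF4A, brings this assembly to the mRNA, and the eIF4E-binding proteins block it unless mTORC1 phosphorylates them. After the subunits join, eEF1A delivers aminoacyl-tRNAs, the eEF1B subunits recharge it with GTP, and eEF2 moves the ribosome along. The mRNAs of many elongation factors and of some initiation factors begin with a C followed by a run of pyrimidines, the terminal oligopyrimidine (TOP) start, which ties their translation and stability to mTORC1 and LARP1.

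The data are RNA-seq counts from LN229, an established human glioblastoma line. Cells at 80% confluence in 6-well dishes were kept for 24 hours in RPMI with 10% dialyzed fetal bovine serum. The medium held either 1 mM glucose, the same with acetate added at 5 mM, or 10 mM glucose, with 4 libraries per condition. All 12 libraries came from this 1 line, with no genetic change named. Nothing says that the 4 libraries of a condition came from separate cultures, so each p-value measures only how far these samples differ, and that spread may be technical.

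Total counts were 24.4 M to 27.2 M (mega) in each library. Levels are in CPM, counts per megacount after TMM scaling, which sets the libraries to a common level from the bulk of the genes. A log2 fold change is given with its standard error (SE), and a gene is called when its edgeR adjusted p over the 14416 genes tested is under 0.05. Replicate 3 at 1 mM glucose and replicate 1 with acetate stood apart from their groups. In those libraries log2 CPM, relative to the mean of all libraries, fell with transcript length (Spearman rho -0.486 and -0.481 across genes), against -0.178 to 0.228 in the other 10. All 10 glial markers examined were tested, although GFAP lay near 1 CPM (0.980 ± 0.282 CPM at 1 mM glucose, SD, n = 4). At 10 mM against 1 mM glucose 5 of the 10 were called higher (among them SOX2 at 2.40 and NES at 1.22 on the log2 scale), 4 lower (among them OLIG2 at -1.56), and their summed level was 6573 to 7818 CPM at 1 mM glucose, 6172 to 6599 CPM with acetate and 6133 to 6234 CPM at 10 mM glucose. That sum was mostly VIM, at 5249 ± 535 CPM at 1 mM glucose (SD, n = 4), which was among the 4 called lower (-0.48). Of 6 neuron markers 4 were tested, with a summed level over the 6 of 295 to 376, 258 to 283 and 328 to 360.5 CPM in the same order, mostly TUBB3, and SNAP25 was called higher at 10 mM (0.88). Of 4 epithelial markers only KRT14 was tested, and the 4 summed to 10.2 to 15.8, 6.83 to 8.57 and 12.3 to 15.0 CPM. The 6 blood markers and 4 endothelial markers each stayed under 1 CPM on average and HBB was at 0. Of the 4 endothelial markers only VWF was tested, at means of 0.302, 0.940 and 0.873 CPM in the same order. It was called higher at 10 mM glucose (1.52 on the log2 scale) and with acetate (1.62), against 1 mM glucose. Whether these shifts have a part in the changes below was not tested. Each comparison shares its libraries with the others, so their fold changes are not independent of each other.

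With 10 mM instead of 1 mM glucose the factor genes moved mostly down. Of the 62 tested, 34 were called lower and 12 higher, and 16 were not called. Over all genes tested the calls were almost even, at 33.8% lower and 33.7% higher. The median log2 fold change was -0.40 over the factor genes and 0.0011 over all genes. At least 1.5-fold lower were 22 members, against 15.6% of all genes, and at least 1.5-fold higher was 1 member, EIF4EBP2, against 16% of all genes. In 46 of the 62 members the 4 libraries at 10 mM glucose did not overlap the 4 at 1 mM, against 61.5% of all genes. Together the factor genes took 1.88 ± 0.0576% of all counts at 1 mM glucose (SD, n = 4). That share was 1.80 ± 0.0603% when acetate was added and 1.46 ± 0.0151% at 10 mM glucose. In bulk RNA, a lower share of a gene's reads does not tell less RNA per cell from fewer cells that make it, and no protein or ribosome occupancy was measured.

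**Figure D1:**
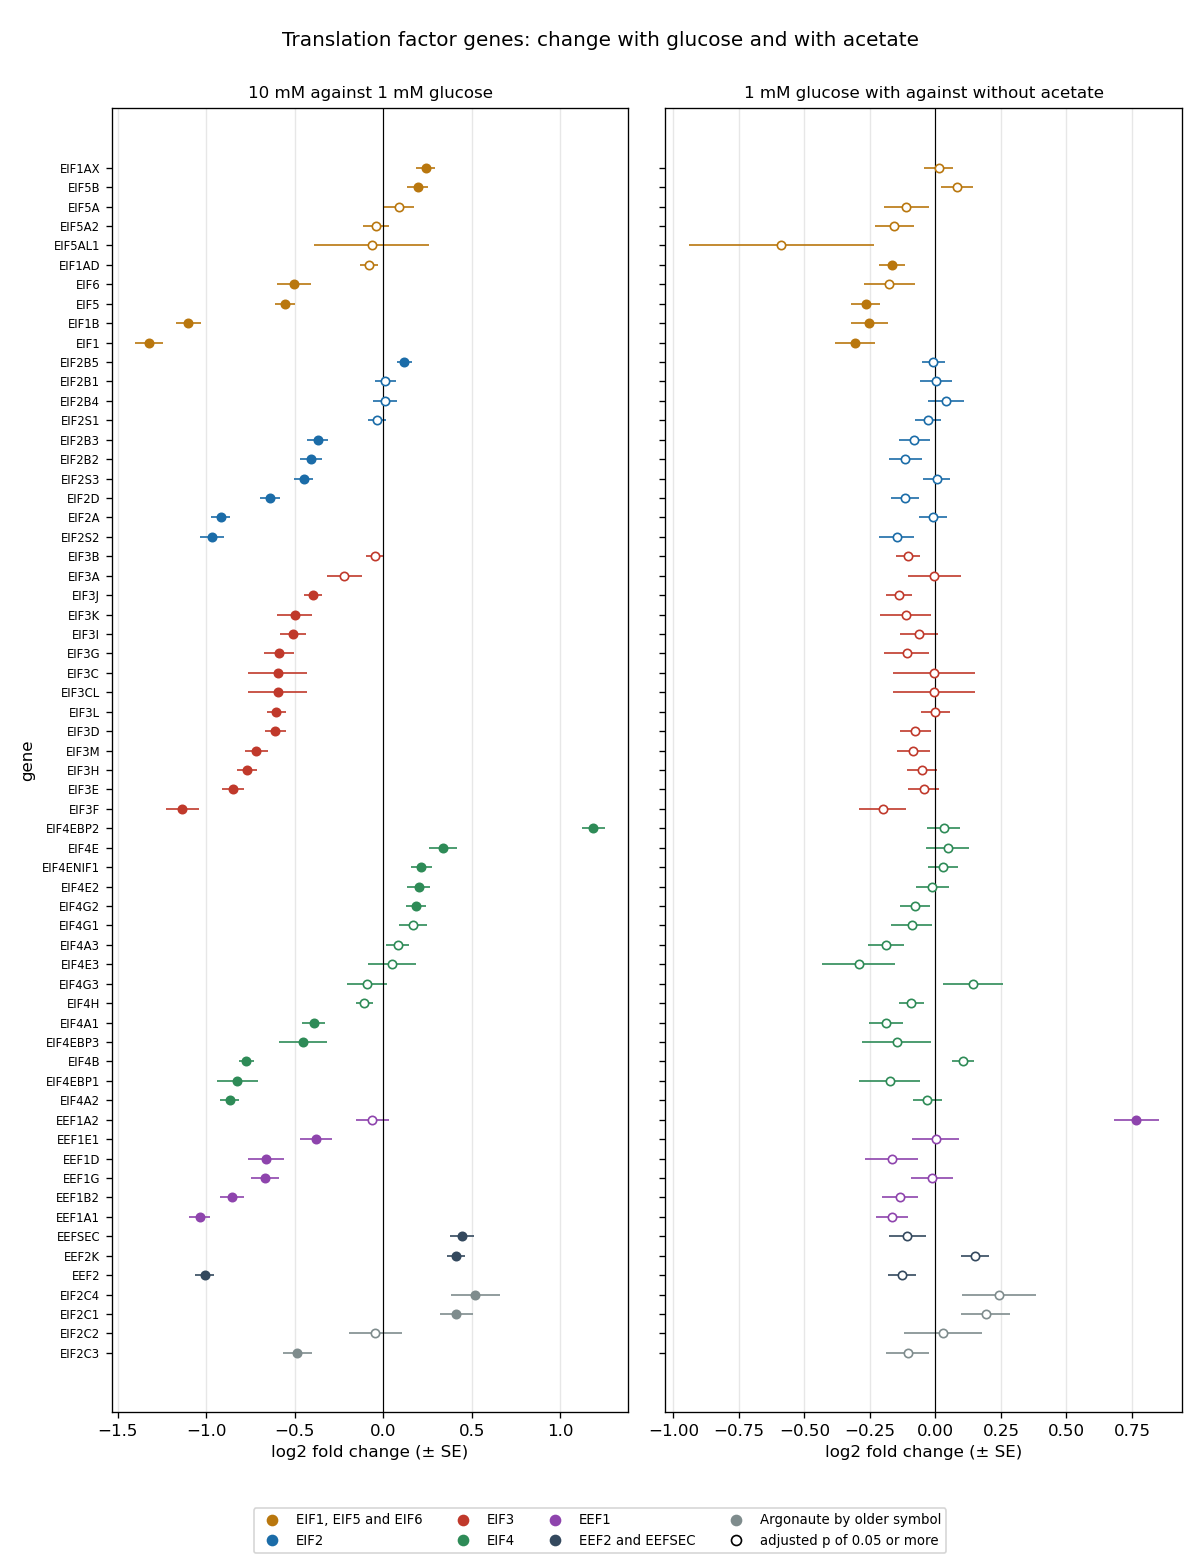
Log2 fold change with its SE (x axis) of each of the 62 tested factor genes (y axis), for 10 mM against 1 mM glucose (left) and for acetate against none at 1 mM glucose (right); filled points had an adjusted p under 0.05. On the left 34 genes lie to the left as called and 12 to the right, with EIF1 lowest at -1.32 and EIF4EBP2 highest at 1.19; on the right 5 genes are filled, with EEF1A2 alone to the right. The x axes differ in range.

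The start sequences of 11 factor genes are shown because every tested member with a TOP-like start fell at 10 mM glucose, while members with another start moved both ways. RefSeq start sites on GRCh38.p14 were on hand for 52 of the 63 members. Each line runs from 10 bases before the annotated start to 20 bases from it, 5′ to 3′ on the gene's strand, and capitals mark the unbroken run of C and T that begins with a C at the start itself. The first 7 genes fell at 10 mM glucose, and the last 4 are genes with no such run, of which EIF4EBP2 and EIF4E rose, EIF2S1 was not called and EIF1 fell most of all members.
EEF1A1: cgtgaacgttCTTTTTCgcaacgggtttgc
EEF2: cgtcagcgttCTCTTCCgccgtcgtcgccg
EEF1B2: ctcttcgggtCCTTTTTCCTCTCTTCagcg
EIF3F: cttccgcctcCTTCTTTCTCgacaagatgg
EIF4B: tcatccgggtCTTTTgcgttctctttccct
EIF2A: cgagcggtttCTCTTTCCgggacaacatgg
EIF4A2: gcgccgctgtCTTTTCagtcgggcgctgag
EIF4EBP2: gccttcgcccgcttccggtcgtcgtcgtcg
EIF4E: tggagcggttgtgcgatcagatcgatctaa
EIF2S1: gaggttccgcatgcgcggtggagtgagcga
EIF1: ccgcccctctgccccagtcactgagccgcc

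On GRCh38.p14 these windows are chr6:73521013-73521042 (minus strand) for EEF1A1, chr19:3985444-3985473 (minus strand) for EEF2, chr2:206159885-206159914 (plus strand) for EEF1B2, chr11:7987327-7987356 (plus strand) for EIF3F, chr12:53006446-53006475 (plus strand) for EIF4B and chr3:150546777-150546806 (plus strand) for EIF2A. The others are chr3:186783567-186783596 (plus strand) for EIF4A2, chr10:70404135-70404164 (plus strand) for EIF4EBP2, chr4:98929114-98929143 (minus strand) for EIF4E, chr14:67360318-67360347 (plus strand) for EIF2S1 and chr17:41688875-41688904 (plus strand) for EIF1. Each holds the last bases of the promoter and the first bases of exon 1. The run was 16 bases long in EEF1B2, which has a second annotated start without one, 10 in EIF3F, 8 in EIF2A, 7 in EEF1A1 and EEF2, 6 in EIF4A2 and 5 in EIF4B.

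A run of at least 5 pyrimidines led by a C stood at an annotated start of 12 tested members. All 12 fell at 10 mM glucose, with a median log2 fold change of -0.82 and a range from -1.14 to -0.45. The 12 are EEF1A1, EEF1B2, EEF2, EIF2A, EIF2D, EIF2S3, EIF3D, EIF3F, EIF3K, EIF3M, EIF4A2 and EIF4B. Of 39 tested members with another start, 12 rose, 14 fell and 13 were not called, and their median was -0.04. Of the 11 with no entry, 8 fell. Among all tested genes with an entry, 815 had such a start, of which 45.6% were called lower (median -0.12), against 32.8% of the 10234 others (median 0.02). Without the factor genes and the ribosomal protein genes, 41.4% of the remaining 756 such genes were called lower. Such a start stood at 4.07% of the 35116 entries in the table. The rule for these letters was chosen after values of these genes had been seen, so the split is a description and was not tested.

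**Figure D2:**
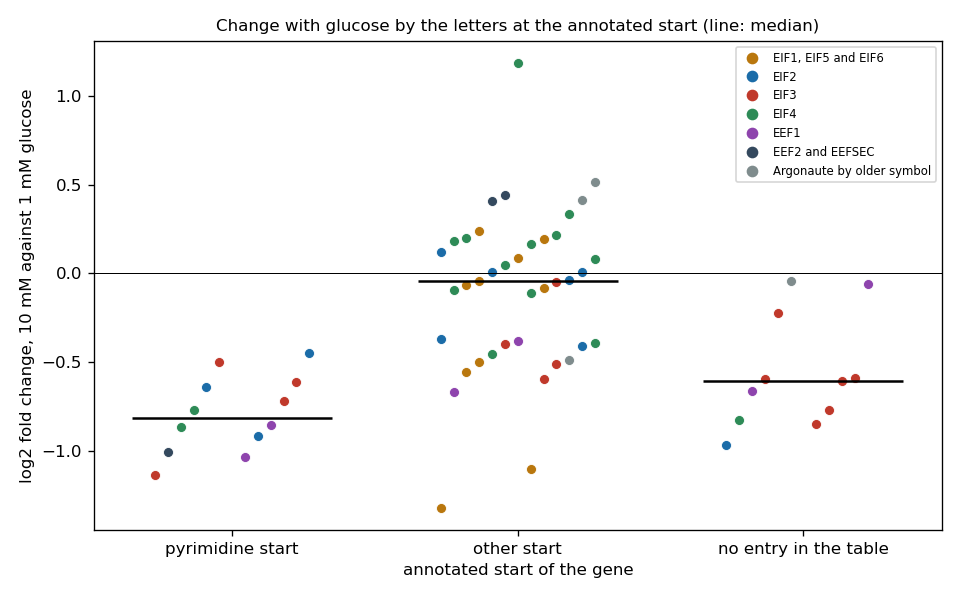
Log2 fold change at 10 mM against 1 mM glucose (y axis) of the 62 tested factor genes by the letters at their annotated start (x axis), coloured by family, with a line at each median; the sideways spread of points carries no value. The 12 genes with a pyrimidine start all lie at -0.45 or below, while the 39 with another start run from -1.32 to 1.19.

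Genes without such a run fell too. EIF1, at -1.32, fell more than all 12, and EIF1B, at -1.10, fell more than all but EIF3F. The 9 members listed as TOP genes in textbooks (EEF1A1, EEF1B2, EEF1D, EEF1G, EEF2, EIF3E, EIF3F, EIF3H and EIF4B) all fell, with a median of -0.85. EEF1G is on this list although its annotated start does not meet the rule on letters. With acetate 0 of the 9 were called by edgeR, 4 had an unadjusted p under 0.05 and DESeq2 called 3, and their log2 fold changes ran from -0.20 to 0.10. A search of both strands of the 300-base promoter entries for the E-box CACGTG found it in 13 of the 68 entries of members (19.1%) and in 7.26% of all entries. The 7.26% is over all entries, also those of genes not tested. Of the members with it, 3 rose, 6 fell and 4 were not called. Among all tested members with an entry 12 rose and 26 fell. The E-box thus stood in a share of each near the 25% of all members with an entry.

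Among the elongation factors, eEF2 and 5 of the 6 EEF1 genes fell at 10 mM glucose, while the eEF2 kinase gene and the selenocysteine factor gene rose. The median log2 fold change of the EEF1 group was -0.67. EEF1A1 encodes the main form of eEF1A, which carries aminoacyl-tRNA to the ribosome. Its level was 1864, 1731, 1925 and 1822 CPM in the 4 libraries at 1 mM glucose, 1822, 1666, 1542 and 1520.3 CPM with acetate and 892, 869, 921 and 891 CPM at 10 mM glucose. The 10 mM libraries all lay far below the other 8, and those with acetate overlapped those without. At 10 mM glucose EEF1A1 was lower, at -1.04 ± 0.06 on the log2 scale (edgeR adjusted p = 1.71e-09). These counts do not show which reads of EEF1A1 came from its near-identical pseudogenes.

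EEF2, the gene of the translocase eEF2, had the highest level per length of all members in each condition, at 1169 CPM per kilobase of transcript at 1 mM glucose. This order holds for these counts only, since reads shared with copies, such as the EEF1A1 pseudogenes, may have been left out. EEF2 counted 3951, 3472, 3782 and 3589.7 CPM at 1 mM glucose, 3313, 3399.8, 3514 and 3323 CPM with acetate and 1824, 1811, 1942 and 1776 CPM at 10 mM glucose. Again the 10 mM libraries lay below all others, with a log2 fold change of -1.01 ± 0.05 against 1 mM glucose (edgeR adjusted p = 5.47e-10). EEF2K, the gene of the kinase that phosphorylates and inhibits eEF2, went the other way. It stood at 40.8, 39.2, 37.2 and 39.2 CPM at 1 mM glucose, 40.9, 44.0, 43.0 and 45.7 CPM with acetate and 53.3, 50.7, 52.8 and 50.8 CPM at 10 mM glucose. All 4 libraries at 10 mM were above the other 8, and the log2 fold change was 0.41 ± 0.05 (edgeR adjusted p = 6.29e-06). Across the alternative ways of processing given below, the EEF2K change ran from 0.22 to 0.55. EEFSEC, which delivers selenocysteine tRNA, rose from 12.1 ± 1.02 to 16.5 ± 0.614 CPM (SD, n = 4).

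The subunits of eEF1B, the exchange factor that reloads eEF1A with GTP, fell together. EEF1B2 stood at 223, 209, 238 and 228 CPM at 1 mM and 119, 120.1, 126 and 131 CPM at 10 mM glucose, a log2 difference of -0.86 ± 0.07 (edgeR adjusted p = 4.34e-08). EEF1G changed by -0.67 ± 0.08 and EEF1D by -0.66 ± 0.10 on the log2 scale. EEF1E1, which encodes a protein of the tRNA synthetase complex, changed by -0.38 (-0.41 to -0.13 across the alternatives given below). Part of its reads may belong to a readthrough transcript with its neighbour that is counted separately. The exception in the group was EEF1A2, the gene of the eEF1A form known from neurons and muscle. It was low in every library and did not differ between the glucose levels (-0.06 ± 0.09, edgeR adjusted p = 0.565).

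**Figure D3:**
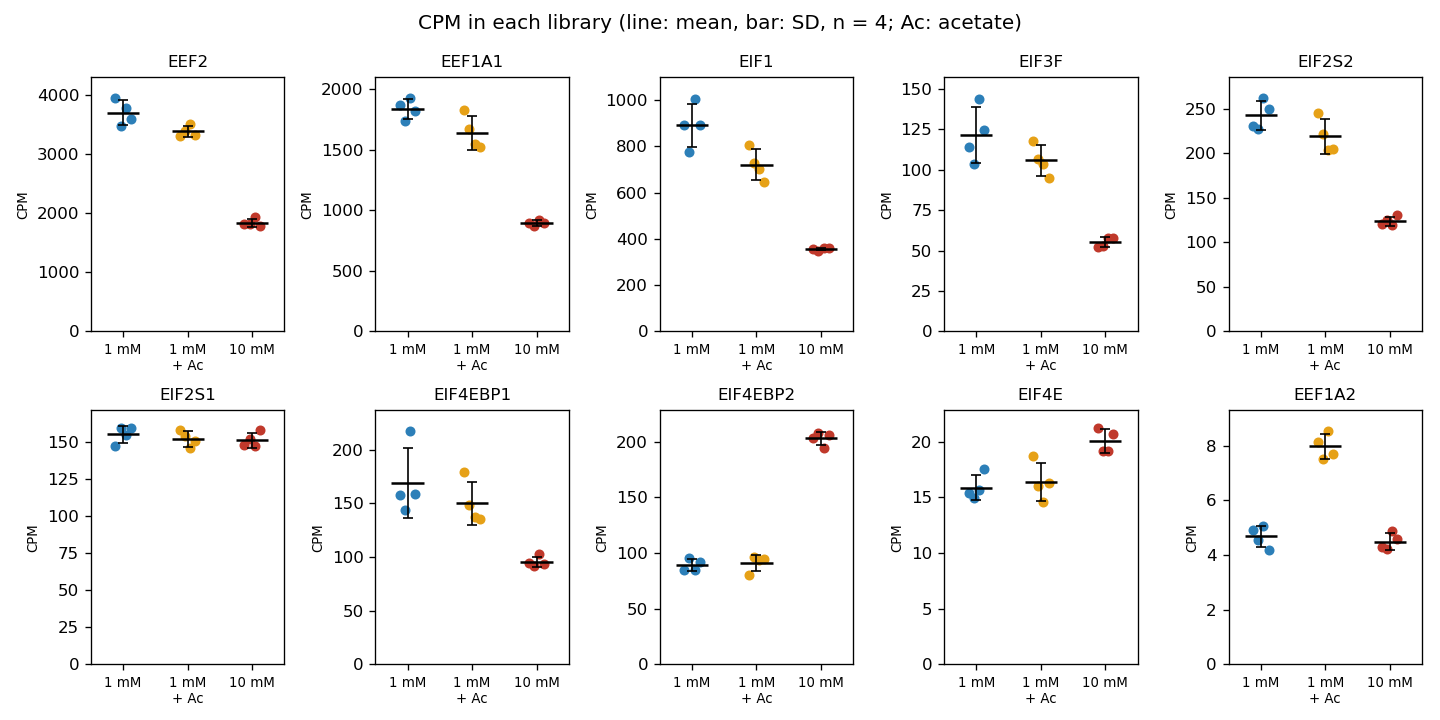
Level in CPM (y axis, from 0) of 10 factor genes in each of the 12 libraries at 1 mM glucose, 1 mM glucose with acetate (Ac) and 10 mM glucose; points are libraries, lines means and bars SD (n = 4). EEF2, EEF1A1, EIF1, EIF3F, EIF2S2 and EIF4EBP1 are lower at 10 mM glucose in every library, EIF4EBP2 and EIF4E are higher, EIF2S1 overlaps, and EEF1A2 is highest with acetate.

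The scaffold eIF3, which holds the small subunit and the mRNA together, was the most uniform initiation group. Of its 14 genes 12 were called lower at 10 mM glucose and the other 2 were not called, the median log2 fold change was -0.60, and 9 were at least 1.5-fold lower. EIF3F fell most. It stood at 114, 103, 144 and 125 CPM at 1 mM glucose, 118, 106, 104 and 94.9 CPM with acetate and 52.4, 52.8, 57.9 and 58.1 CPM at 10 mM glucose. The 10 mM libraries were all below the lowest of the others, and the log2 fold change was -1.14 ± 0.09 (edgeR adjusted p = 5.69e-08). EIF3E stood at 382, 409, 403 and 420.3 CPM at 1 mM and 216, 229.8, 215 and 235 CPM at 10 mM glucose (-0.85 ± 0.06, edgeR adjusted p = 1.29e-08). EIF3H followed at -0.77 ± 0.06. EIF3M, EIF3D, EIF3L, EIF3G, EIF3I, EIF3K and EIF3J, named here only to account for the group, lay between -0.72 and -0.40.

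Both genes of the group that were not called, EIF3A and EIF3B, encode large core subunits and are singled out after their values were seen. EIF3A stood at 601, 638, 446 and 560.4 CPM at 1 mM glucose, with its lowest value in replicate 3, and at 479, 495, 473 and 480.3 CPM at 10 mM glucose. Its log2 fold change was -0.22 ± 0.10 (edgeR adjusted p = 0.0631). Without replicate 3 at 1 mM glucose it was -0.32 (edgeR adjusted p = 0.00207), and without replicate 1 with acetate, a group outside this comparison, the adjusted p was 0.0306. It was called lower in 4 further alternatives, among them with the trend over transcript length and GC content removed (-0.34, adjusted p = 2.98e-06). EIF3B differed by -0.05 ± 0.05 (edgeR adjusted p = 0.355), and with that trend removed it was called lower, at -0.08 (adjusted p = 0.0205). EIF3C and its near-identical copy EIF3CL held the same count in each of the 12 libraries, between 25 and 54, so they give 1 measurement, and 11 distinct measurements of the group fell. The pair is among these 11, and its fall rests on few reads. It averaged 1.61 CPM over the 12 libraries, against 535 CPM for EIF3A and 437 CPM for EIF3B. Both copies are counted among the 9 genes of the group at least 1.5-fold lower, and the group median of -0.60 is their value. They are also both counted in the 34 members called lower and the 22 at least 1.5-fold lower.

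In the EIF2 group the subunits of one complex divided. The trimer eIF2 carries the initiator tRNA, and its alpha subunit is the one that the stress kinases phosphorylate. EIF2S1, the alpha subunit gene, stood at 147, 159, 155 and 159 CPM at 1 mM glucose, 158, 154, 146 and 150.4 CPM with acetate and 148, 152, 147 and 158 CPM at 10 mM glucose. The 3 groups overlapped, and the log2 fold change of -0.04 ± 0.05 was within its error (edgeR adjusted p = 0.522). EIF2S2, the beta subunit gene, stood at 231, 227, 262 and 249.5 CPM at 1 mM glucose, 245, 221, 203 and 205 CPM with acetate and 120.3, 125, 119.6 and 130.5 CPM at 10 mM glucose. It fell in every 10 mM library, by a log2 difference of -0.97 ± 0.07 (edgeR adjusted p = 1.16e-08). EIF2S3, the gamma subunit gene, lay between them at -0.45 ± 0.05. The differences between the 3 subunits were not themselves tested.

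The exchange factor eIF2B, which recharges eIF2 with GTP and is blocked by phosphorylated eIF2, has 5 subunits, and its genes divided too. EIF2B2 (-0.41 ± 0.06) and EIF2B3 (-0.37 ± 0.06) were called lower. EIF2B1 (0.01 ± 0.06) and EIF2B4 (0.01 ± 0.07) were not called. EIF2B5, the gene of the catalytic subunit, was called higher by 0.12 ± 0.04 (edgeR adjusted p = 0.0259). That call was lost in 6 alternatives, with adjusted p up to 0.0776. They were the fit with no filter and those without replicate 1, 2 or 4 at 1 mM glucose or replicate 1 or 4 at 10 mM. EIF2A and EIF2D are not subunits of eIF2 but separate proteins that can bring tRNA to the ribosome. EIF2A fell from 206, 204, 209 and 213 CPM at 1 mM to 108, 110.5, 109.5 and 111 CPM at 10 mM glucose (-0.92 ± 0.05, edgeR adjusted p = 1.43e-09), and EIF2D changed by -0.64 ± 0.06. In all, 6 of the 10 EIF2 genes were called lower and 1 higher, against 33.8% and 33.7% of all genes, with a median of -0.39.

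The EIF4 group was the only one of the 4 groups compared (EIF2, EIF3, EIF4 and EEF1) that did not lean one way. Of 15 tested genes 5 were called higher and 5 lower, or 33.3% each, near the 33.7% and 33.8% over all genes tested. The median log2 fold change was 0.05, which turned to -0.07 when the trend over transcript length and GC content was removed. The eIF4E-binding proteins, the inhibitors of cap binding, moved in opposite directions. EIF4EBP1 stood at 158, 144, 217 and 159 CPM at 1 mM glucose, highest in replicate 3, at 179, 148, 137 and 135 CPM with acetate and at 94.5, 91.7, 103 and 93.3 CPM at 10 mM glucose. Its log2 fold change was -0.83 ± 0.12 (edgeR adjusted p = 1.81e-05). EIF4EBP2 stood at 84.4, 95.5, 84.5 and 92.1 CPM at 1 mM glucose, 80.2, 96.3, 93.5 and 94.3 CPM with acetate and 204, 208, 194 and 206 CPM at 10 mM glucose. The 10 mM libraries lay far above every other library, and the log2 fold change of 1.19 ± 0.06 was the highest of all members (edgeR adjusted p = 6.98e-10). EIF4EBP3 was low, at 6.11, 6.36, 8.31 and 6.49 CPM at 1 mM and 5.50, 4.57, 5.47 and 4.40 CPM at 10 mM glucose, and was called lower (-0.45 ± 0.13, edgeR adjusted p = 0.00785). That call was lost when library totals replaced TMM (adjusted p = 0.0547). It was also lost when the length and GC trend was removed with a replicate block (-0.21, adjusted p = 0.0538). The reads of EIF4EBP3 overlap a readthrough transcript with ANKHD1, which averaged 216 CPM against 5.98 CPM for EIF4EBP3. That transcript was called lower too (-0.34 ± 0.12, edgeR adjusted p = 0.0215), and these counts cannot tell its fall from that of EIF4EBP3.

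The cap-binding protein itself, EIF4E, rose. It stood at 15.4, 14.9, 15.6 and 17.6 CPM at 1 mM glucose, 18.7, 16.0, 14.6 and 16.3 CPM with acetate and 21.2, 19.2, 19.2 and 20.7 CPM at 10 mM glucose, from raw counts of 364 to 569 per library. The 10 mM libraries were all above the others, with a log2 difference of 0.34 ± 0.08 (edgeR adjusted p = 0.00177). The size depended on the processing, from 0.31 to 0.60 across the alternatives given below, and the call was kept. EIF4ENIF1, which carries eIF4E into the nucleus and takes part in repressing mRNAs, rose by 0.21 ± 0.06. EIF4G1, the scaffold of eIF4F, differed by 0.17 ± 0.08 without being called (edgeR adjusted p = 0.067). It was called, with the same sign, in 4 alternatives, among them without replicate 1 with acetate (adjusted p = 0.00569), and came to 0.01 with the length and GC trend removed (adjusted p = 0.826).

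The helicase genes fell. EIF4A2 stood at 359.7, 355, 339.7 and 355 CPM at 1 mM and 192, 189, 189 and 202 CPM at 10 mM glucose, with no overlap (-0.87 ± 0.06, edgeR adjusted p = 4.2e-09). EIF4A1, the main helicase gene, changed by -0.39 ± 0.07 (edgeR adjusted p = 9.08e-05). EIF4B, whose protein stimulates the helicase, stood at 536, 519, 511 and 525 CPM at 1 mM glucose, 569.9, 573, 553 and 551 CPM with acetate and 301, 305, 303 and 314 CPM at 10 mM glucose. Its fall at 10 mM was -0.77 ± 0.04 (edgeR adjusted p = 8.74e-10). With acetate all 4 libraries were above those without, but the difference of 0.10 ± 0.04 was not called (edgeR adjusted p = 0.122). EIF4A3, which shares the EIF4A name but belongs to the exon junction complex on spliced mRNA, differed by 0.08 ± 0.07 and was not called. In 4 alternatives it was called higher, at 0.22 with library totals (adjusted p = 0.0101) and 0.19 with the length and GC trend removed (adjusted p = 9.27e-05). It was singled out after its values were seen.

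**Figure D4:**
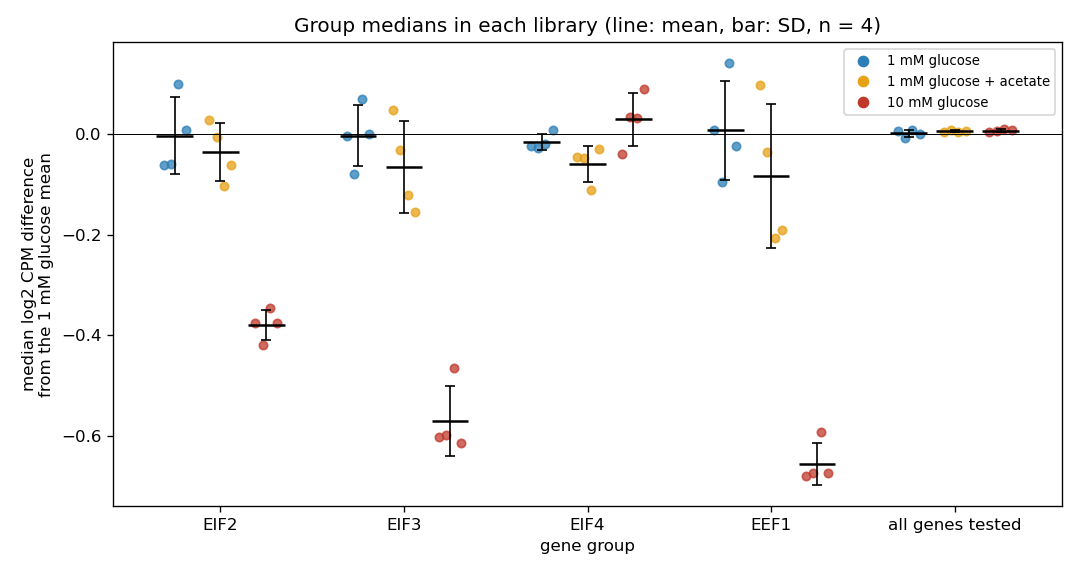
Median over each group's tested genes of the log2 CPM difference from the mean of the 1 mM glucose libraries (y axis), per library and condition (colours); lines are means and bars SD over 4 libraries. EIF2, EIF3 and EEF1 lie below their other libraries at 10 mM glucose (means -0.38, -0.57 and -0.66), EIF4 stays near 0 (mean 0.03), and all genes tested lie at 0 by scaling.

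The start-codon factors held the gene that fell most. EIF1, whose protein keeps the scanning ribosome from starting at the wrong codon, stood at 893, 778, 1004 and 892 CPM at 1 mM glucose, 805, 730.2, 703 and 645 CPM with acetate and 356, 348, 361 and 359 CPM at 10 mM glucose. The 10 mM libraries were tightly grouped and all below the other 8 (log2 fold change -1.32 ± 0.08, edgeR adjusted p = 1.6e-09). EIF1B, a close copy of it, fell by a similar amount (-1.10 ± 0.07), and reads shared between the copies could not be assigned from these counts. EIF5, the protein that makes eIF2 spend its GTP at the start codon, fell from 554, 571, 481 and 555 CPM at 1 mM to 363, 371, 356 and 378 CPM at 10 mM glucose (-0.56 ± 0.06, edgeR adjusted p = 5.7e-07). EIF6, which keeps free large subunits apart from small ones, changed by -0.50 ± 0.10.

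Other factors of these steps rose or were not called. EIF1AX, the gene of eIF1A, rose by 0.24 ± 0.05, and EIF5B, which joins the subunits, rose by 0.19 ± 0.06. EIF5A, the hypusine-carrying elongation factor, differed by 0.09 ± 0.09 (edgeR adjusted p = 0.39). It was called higher in 5 alternatives, among them without replicate 3 at 1 mM glucose (adjusted p = 0.0438) and with the length and GC trend removed (0.24, adjusted p = 8.88e-06). Its relative EIF5A2 differed by -0.04 ± 0.07 and was not called. Of the 10 genes with EIF1, EIF5 and EIF6 symbols, 4 were called lower (40%), 2 higher (20%) and 4 neither, against 33.8% and 33.7% of all genes. Of the 4 Argonaute genes, which act in microRNA silencing, 2 were called higher and 1 lower, so 75% were called, near the 67.5% of all genes.

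Members that were short and abundant tended to have the lower fold changes. Across the 62 members, Spearman's rho of the glucose fold change was 0.355 with transcript length and -0.407 with mean CPM, against 0.194 and -0.0932 over all genes. Genes share the same libraries here and are not replicates, so these are descriptions. With each library's trend over length and GC removed, the 12 members with a pyrimidine start kept a median of -0.77 and all 12 were still called lower.

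**Figure D5:**
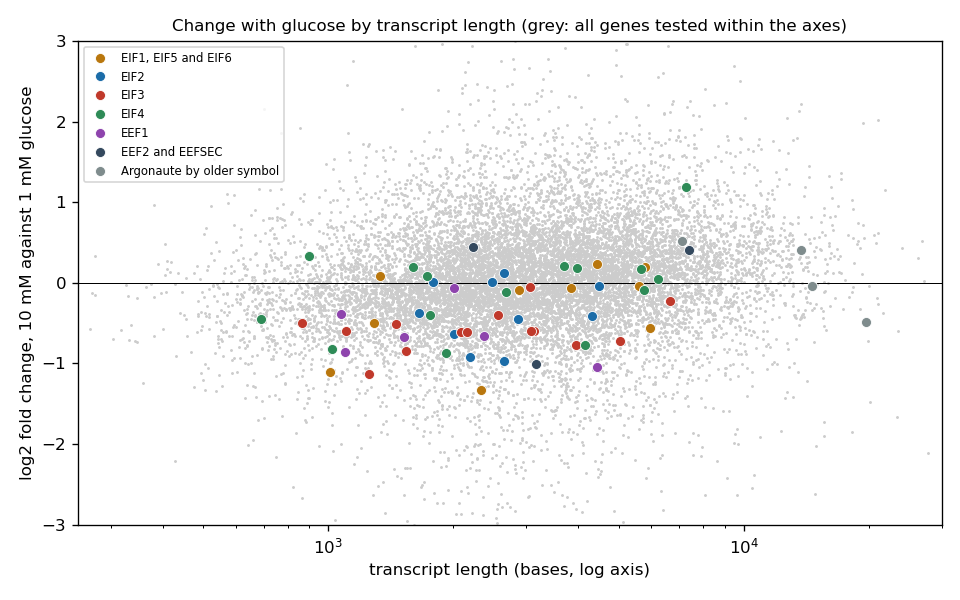
Log2 fold change at 10 mM against 1 mM glucose (y axis) against transcript length in bases (x axis, log scale) for the 62 factor genes, coloured by family, over all tested genes with a length (grey, within the axes). Most EEF1 and EIF3 genes are short and lie below 0, and EIF4EBP2, at 7257 bases, lies above (Spearman's rho 0.355 over the 62).

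With acetate at 1 mM glucose, 8.06% of the tested factor genes were called, against 13.7% of all genes. EEF1A2 was called higher, and EIF1, EIF5, EIF1B and EIF1AD were called lower, which is 1 of 62 higher and 4 of 62 lower against 6.65% and 7.09% of all genes. The median over the 62 was -0.08. No gene of the EIF2, EIF3 or EIF4 groups was called by edgeR, although 1, 3 and 3 genes of them had an unadjusted p under 0.05 and DESeq2 called 0, 2 and 3. The count of 5 was fragile. It became 13 without replicate 1 with acetate, 8 without replicate 2 at 1 mM glucose and 3 without replicate 4 at 1 mM glucose or replicate 2, 3 or 4 with acetate. With the length and GC trend removed it became 17, and without both libraries that stood apart 16. Calls over all genes rose in both of these settings too, as given below. Whether acetate spares the factor genes was not tested.

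EEF1A2 kept its call in every alternative. It stood at 4.93, 4.56, 5.07 and 4.20 CPM at 1 mM glucose, 8.13, 7.52, 8.56 and 7.71 CPM with acetate and 4.30, 4.21, 4.88 and 4.58 CPM at 10 mM glucose. The acetate libraries were above the other 8, which overlapped each other. The log2 fold change with acetate was 0.77 ± 0.09 (edgeR adjusted p = 7.76e-05), the only change of at least 1.5-fold among the members with acetate. EIF5 also kept its call. It stood at 435, 465, 447 and 449 CPM with acetate, below all 4 libraries at 1 mM glucose alone, with a log2 difference of -0.27 ± 0.06 (edgeR adjusted p = 0.00637).

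EIF1 with acetate overlapped EIF1 without it, and its log2 fold change was -0.31 ± 0.08 (edgeR adjusted p = 0.0162). That call was lost without replicate 4 with acetate (adjusted p = 0.0609) and from only the 8 libraries compared (adjusted p = 0.0694). EIF1B (-0.25 ± 0.07, edgeR adjusted p = 0.0287) lost its call in 7 alternatives. They were those without replicate 4 at 1 mM glucose or replicate 2, 3 or 4 with acetate, library totals, the replicate block and only the 8 libraries compared. EIF1AD (-0.17 ± 0.05, edgeR adjusted p = 0.0423) lost it in 14 alternatives, among them 10 of the 12 that left out 1 library. These last 2 genes fall outside the rule for naming and were named to account for the count.

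Between 10 mM glucose and 1 mM glucose with acetate, 34 members were called lower and 13 higher, against 31.8% and 31% of all genes. The medians were -0.29 for EIF2, -0.56 for EIF3, -0.69 for EEF1 and 0.18 for EIF4. All 6 EEF1 genes were called lower here. EEF1A2 was among them at -0.83 ± 0.08 (edgeR adjusted p = 9.07e-07), its acetate level being above both others. EIF1 still differed by -1.02 ± 0.08 (edgeR adjusted p = 3.67e-08), and EIF5 by -0.29 ± 0.06 (edgeR adjusted p = 0.000381). EIF4EBP2 stayed higher at 10 mM glucose by 1.16 ± 0.06. For a given gene this comparison also tests whether its glucose and acetate changes differ.

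The partners that control these factors gave mixed counts at 10 mM against 1 mM glucose, to be read beside the 33.8% of all genes called lower and 33.7% called higher. Among 12 genes of the eIF2 kinases and the eIF2alpha phosphatase, 7 were called lower and 3 higher, with a median of -0.23. PPP1R15A (GADD34), which directs the phosphatase to eIF2 after stress, fell from 853 ± 49.7 to 61.1 ± 1.99 CPM (log2 fold change -3.80 ± 0.06, edgeR adjusted p = 4.23e-15). With acetate it stood at 617 ± 29.3 CPM, a change of -0.47 ± 0.06 (edgeR adjusted p = 0.000107). DNAJC3, an inhibitor of the kinase PERK, changed by -1.82 ± 0.08 with glucose, and EIF2AK3, the gene of PERK itself, by -1.24 ± 0.09.

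Among 14 genes listed for the mTORC1 branch that leads to cap binding, 7 were called lower and 4 higher. The listed gene that rose most, RPS6KA1 (1.22 ± 0.05), encodes a kinase of RPS6 that the ERK pathway activates, not an mTORC1 target. Of the S6 kinase genes that mTORC1 acts on, RPS6KB1 rose by 0.22 ± 0.07 and RPS6KB2, at -0.0036 ± 0.09, was not called, and both were named after their values were seen. RPS6, itself a TOP gene, changed by -0.79 ± 0.08, and the mTORC1 subunit gene MLST8 by -0.70 ± 0.10. Of 13 genes of cap and poly(A) partners, 5 were called lower (38.5%) and 2 higher (15.4%), so the share called lower was near that of all genes. MKNK2, a kinase of eIF4E, fell most, from 115 ± 7.84 to 47.6 ± 2.38 CPM (-1.28 ± 0.06, edgeR adjusted p = 1.23e-10). The TOP genes PABPC1 (poly(A)-binding protein) and TPT1 changed by -0.78 ± 0.04 and -0.89 ± 0.07.

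The list of 17 genes of release, recycling and factor modification, which also holds scaffolds of the tRNA synthetase complex, had 13 called lower and 4 not called, with a median of -0.24 and none at 1.5-fold. ETF1, the gene of the release factor eRF1, changed by -0.57 ± 0.05, AIMP1, a scaffold of the tRNA synthetase complex, by -0.50 ± 0.06, and DPH5, an enzyme that makes the diphthamide residue of eEF2, by -0.57 ± 0.07. Of 11 mitochondrial translation factor genes, 7 were called lower and 2 higher, none by 1.5-fold, against 15.6% of all genes at least 1.5-fold lower. MTIF2 changed by -0.43 ± 0.05 and GFM2 by -0.51 ± 0.06, and MTRF1L rose by 0.43 ± 0.06.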

How the data were processed

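LN229 RNA-seq libraries were analysed from 1 table per sample, 12 in all. The authors deposited raw counts as whole numbers with no normalization, for 34917 RefSeq transcripts per library, as the values and columns of the files show. The build is hg19 per the submitters' processing notes, libraries followed standard Illumina protocols per the labels' protocols, and for the aligner, the counting program and the strand setting: not given in the sources used here. Without strand, reads of overlapping antisense genes cannot be told apart. Reads may be counted on several transcripts of a gene, so 1 transcript stood for each gene: the one the authors marked, or the one with the highest total where none was marked (4 of the 63 members). Copies such as EIF3C and EIF3CL, EIF1 and EIF1B, or EEF1A1 and its pseudogenes may share reads.

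Groups came from the sample titles. The test was the quasi-likelihood F test of edgeR 4.0.16, run in R 4.3.3 after filterByExpr and TMM, with all 12 libraries in 1 fit and 1 mean per group. Benjamini-Hochberg adjustment ran over the 14416 genes tested, with a threshold of 0.05. The common biological coefficient of variation was 8.51%. On simulated counts for the acetate comparison (14416 genes, 200 changed, 3 sets) the fit recovered 48.2% of 1.25-fold, 97.9% of 1.5-fold and 100% of 2-fold changes, and 4.24% of its calls were false. The simulated counts held no library trend over transcript length, unlike the real libraries that stood apart. These rates therefore need not hold for the real acetate comparison. Alternatives were DESeq2 1.42.0 and its size factors, library totals, other filters, the transcript with the highest total, a replicate block, removal of each library's trend over length and GC (spline with 5 degrees of freedom, lengths from GENCODE v29), and leaving out libraries. The numbers were not taken as pairs, since in no comparison did every same-numbered pair correlate above 0.1. RefSeq promoter entries (GRCh38.p14) were matched by symbol. Per-length levels use the length of the GENCODE transcript that carries the counted accession.

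The rule named, in each family, up to 3 called members with the highest and 3 with the lowest glucose fold change and up to 2 each way for acetate, averaging at least 5 CPM, plus a fixed set of core factors. From each partner list it named up to 3 called genes with the smallest glucose p. The members, lists and tests were chosen with earlier results of these data known, and the rule on pyrimidine starts after these values were seen.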

Additional observations from a re-analysis of the deposited data

Results flagged for a closer look

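In 5 of 186 groups of 4 libraries, each 1 factor gene in 1 condition, 1 library lay far from the other 3 (its gap to the nearest, divided by the group's range, exceeded Dixon's critical value). Chance flags about 1 in 20 such groups. All 5 were in the libraries that stood apart. In replicate 1 with acetate, EIF2C1 was low at 58.4 CPM (others 74.1 to 75.8), EIF4G3 was low at 104.9 CPM (others 143 to 151), and EIF4EBP3 was high at 7.72 CPM (others 5.49 to 5.76). In replicate 3 at 1 mM glucose, EIF4E2 was high at 53.6 CPM (others 48.4 to 49.2) and EIF5AL1 was high at 0.819 CPM (others 0.326 to 0.407).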

How the results depend on the processing

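Of the 46 members called for glucose, 44 kept their call in every alternative that tested them, and EIF2B5 and EIF4EBP3 did not. Of those not called, 11 for glucose, 18 for acetate and 10 for 10 mM glucose against acetate were called in at least 1 alternative. The 11 were EIF2B1 (library totals), EIF2B4, EIF3B and EIF5A2 (length and GC trend removed), and EIF2C2, EIF3A, EIF4A3, EIF4G1, EIF4G3, EIF4H and EIF5A in 3 to 6 alternatives each. Of the 5 called for acetate, EEF1A2 and EIF5 kept it, and 39 of the 47 called between 10 mM glucose and acetate did. No called member changed sign. Library totals in place of TMM raised the median of all genes by 0.14 for glucose and 0.10 for 10 mM glucose against acetate. The glucose medians then were -0.25 (EIF2), -0.46 (EIF3), 0.19 (EIF4) and -0.52 (EEF1), the acetate median of EIF4 was -0.040, and the medians against acetate were -0.19 (EIF2), -0.46 (EIF3) and 0.29 (EIF4). With a minimum mean of 5 CPM the EIF4 medians were 0.0014 for glucose and 0.091 against acetate. Members called for acetate, 5 in all, became 12 by DESeq2's Wald test, 3 with the replicate block, 16 without both libraries that stood apart, 17 with the length and GC trend removed, 12 with that and the replicate block, and 2 from only the 8 libraries compared. All genes called for acetate, 1980, became 3728 without both libraries, 3956 with the trend removed, 3582 with that and the block, and 1056 from the 8 libraries. Without both libraries the glucose median of EEF1 was -0.57. With the trend removed, with or without the replicate block, the glucose medians were -0.32 (EIF2) and -0.068 (EIF4), and the medians against acetate 0.11 (EIF4) and -0.57 (EEF1). With the Argonaute genes counted in EIF2 its medians were -0.21 for glucose and -0.18 against acetate. Leaving out 1 library at a time gave 3 to 13 members and 1196 to 2956 genes called for acetate. The medians then ran from -0.00028 to 0.075 (EIF4, glucose), -0.73 to -0.57 (EEF1, glucose), -0.10 to -0.037 (EIF4, acetate) and -0.61 to -0.48 (EIF3, against acetate). Same-numbered libraries correlated between -0.365 and 0.270 over 12 pairs, over 0.1 in 3. Between 1 mM and 10 mM glucose the 4 pairs lay between 0.0645 and 0.270 and all 8 libraries correlated best with their own number, a hint from the data and not the design, and in the comparisons with acetate they did not. With the replicate block 46 members were called for glucose. Apart from those given, the cause of these shifts was not tested. EIF3C, EIF3CL, EIF4E3 and EIF5AL1 each held few reads, under 3 CPM on average. Whether reads shared with near-identical copies were left out of these counts was not tested, so a low count need not mean low expression.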

Other observations

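EIF4G3, a relative of EIF4G1, differed between 10 mM glucose and 1 mM glucose with acetate by -0.23 ± 0.11 (edgeR adjusted p = 0.0881), and by -0.34 without replicate 1 with acetate (edgeR adjusted p = 0.00458). It was chosen after its values were seen. EIF4G2 (DAP5), which drives initiation without eIF4E, rose at 10 mM glucose, where all 4 libraries were above those at 1 mM (log2 fold change 0.18 ± 0.06, edgeR adjusted p = 0.00974). It too was chosen after its values were seen.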
